A study of Mus musculus with 8 samples.

Results

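The postsynaptic density scaffold genes Shank1, Shank2, Shank3, Dlg1, Dlg2, Dlg3, Dlg4, Dlgap1 and Dlgap2 were followed through single-nucleus RNA counts from the mouse cerebral cortex. The 9 genes were chosen by symbol, and each was present among the 32285 genes of the count files. Nuclei came from 8 C57BL/6J mice aged 25 days, of which 4 were wild type (WT) and 4 were Chd8+/-, each genotype with 2 males and 2 females, and every animal gave 1 library. The medial cortex had been removed, the animals were matched in 4 pairs by litter and by sex, and the tissue was flash-frozen before nuclei of all 8 samples were prepared in parallel. Libraries were made with the 10x Genomics 3' kit, which counts unique molecular identifiers (UMIs). In every group of sex and genotype, the library numbered 1 carried single indexes and the one numbered 2 carried dual indexes. How the Chd8 allele was made is not given in the sources used here, and all groups shared the C57BL/6J background with no treatment named in the labels.

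The libraries held 69503598 to 98132783 UMIs over 9140 to 14280 barcodes each. After filters on detected genes, mitochondrial UMIs and predicted doublets, 77836 nuclei were kept, 7485 to 10983 per library, with medians of 5061 to 6115 UMIs per nucleus in the single-indexed and 6210 to 7766 in the dual-indexed libraries. Of 51 clusters, 31 matched the marker genes of 19 cell types and held 65087 nuclei, or 83.62%. Another 1 matched striatal projection neurons and was left out, and 19 stayed unnamed. The names stand for likeness to a type by its markers (L2/3 IT-like, astrocyte-like and so on), and the suffix is left out from here on. Marker support was weakest for L4/5 IT and deep IT neurons, where 5 of 9 and 5 of 8 listed markers were raised at least 2-fold. Any 2 libraries shared 27 to 63 barcodes. Chd8 itself did not separate the genotypes: over all kept nuclei it was at 79 ± 2.8 counts per 1000000 UMIs (CPM, SD, n = 4) in WT and 80.1 ± 6.38 (SD, n = 4) in the libraries labelled Chd8+/- (exact permutation test, two-sided, p = 0.857, where 0.0286 is the smallest p this design allows), so it gave no check of the genotype labels.

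The postsynaptic density is the protein layer under the membrane of an excitatory synapse. Proteins of the DLG family, which are membrane-associated guanylate kinases, bind glutamate receptors and adhesion proteins through PDZ domains. The DLGAP proteins bind the guanylate kinase domain of the DLG proteins, and the SHANK proteins bind the DLGAP proteins and, through Homer, the deeper signalling layer and the actin cytoskeleton. Mutations in SHANK3 and in other scaffold genes are known from autism and intellectual disability, as are mutations in CHD8, which encodes a chromatin remodeller.

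The genes differ widely in length, which matters for nuclear RNA because unspliced transcripts can be counted along the whole gene. On GRCm38 (GENCODE M21) all 9 were protein-coding and on the plus strand. Among the SHANK genes, Shank1 (chr7:44310253-44360572) spanned 50.3 kb and Shank3 (chr15:89499623-89560261) 60.6 kb, whereas Shank2 (chr7:144001928-144424494) spanned 423 kb. Dlg2 (chr7:90476672-92449247) was the longest of the 9 at 1973 kb. The other DLG genes were shorter: Dlg1 (chr16:31663443-31875129) spanned 212 kb, the X-linked Dlg3 (chrX:100767722-100818410) 50.7 kb, and Dlg4 (chr11:70016942-70047522) 30.6 kb. Dlgap1 (chr17:69969073-70821413) covered 852 kb and Dlgap2 (chr8:14095865-14847680) 752 kb. Shank1, Shank2, Shank3, Dlg2, Dlgap1 and Dlgap2 each overlap at least 1 other counted gene, such as the antisense genes Gm14372 in Shank2 and 5031415H12Rik in Dlgap1. Since the strand setting of the counting is not given in the sources used here, reads of such partners cannot be told apart.

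Across the 19 cell types, 8 of the 9 scaffolds had their highest mean level in a neuron type (7 of 9 with library size alone as the scaling), but the SHANK genes already showed that the order was not shared. Of the 19 types, 7 were excitatory and 4 GABAergic, and the same count over all genes was not made, so the 8 of 9 has no background to be read against. Levels are CPM of UMIs summed per library and type, scaled across all type sums by the trimmed mean of M-values (TMM), and given as mean ± SD over the 8 libraries of both genotypes. Shank1 reached 259 ± 67.7 CPM in L5 ET neurons, whose axons leave the cortex, with a lowest library of 187, a median of 249 and a highest of 347. Its lowest mean was 51.1 ± 18.2 CPM in committed oligodendrocyte precursors (COP), a 5.08-fold range. Within neurons Shank1 varied 1.57-fold over the excitatory types and 1.46-fold over the GABAergic types, and 1 of the 18 gaps between neighbouring types in its order was larger than the SD of both. This SD does not use that all types come from the same libraries. The gap of L2/3 IT over L5/6 NP neurons was under the SD, yet Shank1 was higher in L2/3 IT in 8 of 8 libraries.

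Shank2 was highest in the upper and middle layers, at 444 ± 120 CPM in L4/5 IT neurons (lowest 332, median 384, highest 606) and 443 ± 157 in L2/3 IT neurons (286, 373 and 654). The 2 types did not differ beyond their spread. In oligodendrocytes it was at 38.3 ± 17.3 CPM, 11.6-fold lower than in L4/5 IT neurons. Among GABAergic types Shank2 varied 3.07-fold, from 101 ± 22.4 CPM in Pvalb interneurons to 311 ± 59.2 in Vip interneurons, and no library of Pvalb interneurons (highest 139) reached the lowest library of Vip interneurons (242).

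Shank3 had its highest mean outside neurons. Endothelial cells, which line blood vessels, held 115 ± 40.4 CPM, with a lowest library of 64.8, a median of 125 and a highest of 160. Among neurons Shank3 was led by L4/5 IT neurons at 100 ± 13.1 CPM (87.3, 95.4 and 123), and endothelial cells were above these in 5 of 8 libraries. With library size alone as the scaling, the means were 176 and 81 CPM and endothelial cells were above in 8 of 8. The endothelial values rested on 149 UMIs from 442 nuclei, and the smallest library gave 5 UMIs. Mural cells of the vessel wall were at the other end with 5.82 ± 7.56 CPM from 6 UMIs. Endothelial cells exceeded mural cells and astrocytes in 8 of 8 libraries.

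**Figure D1:**
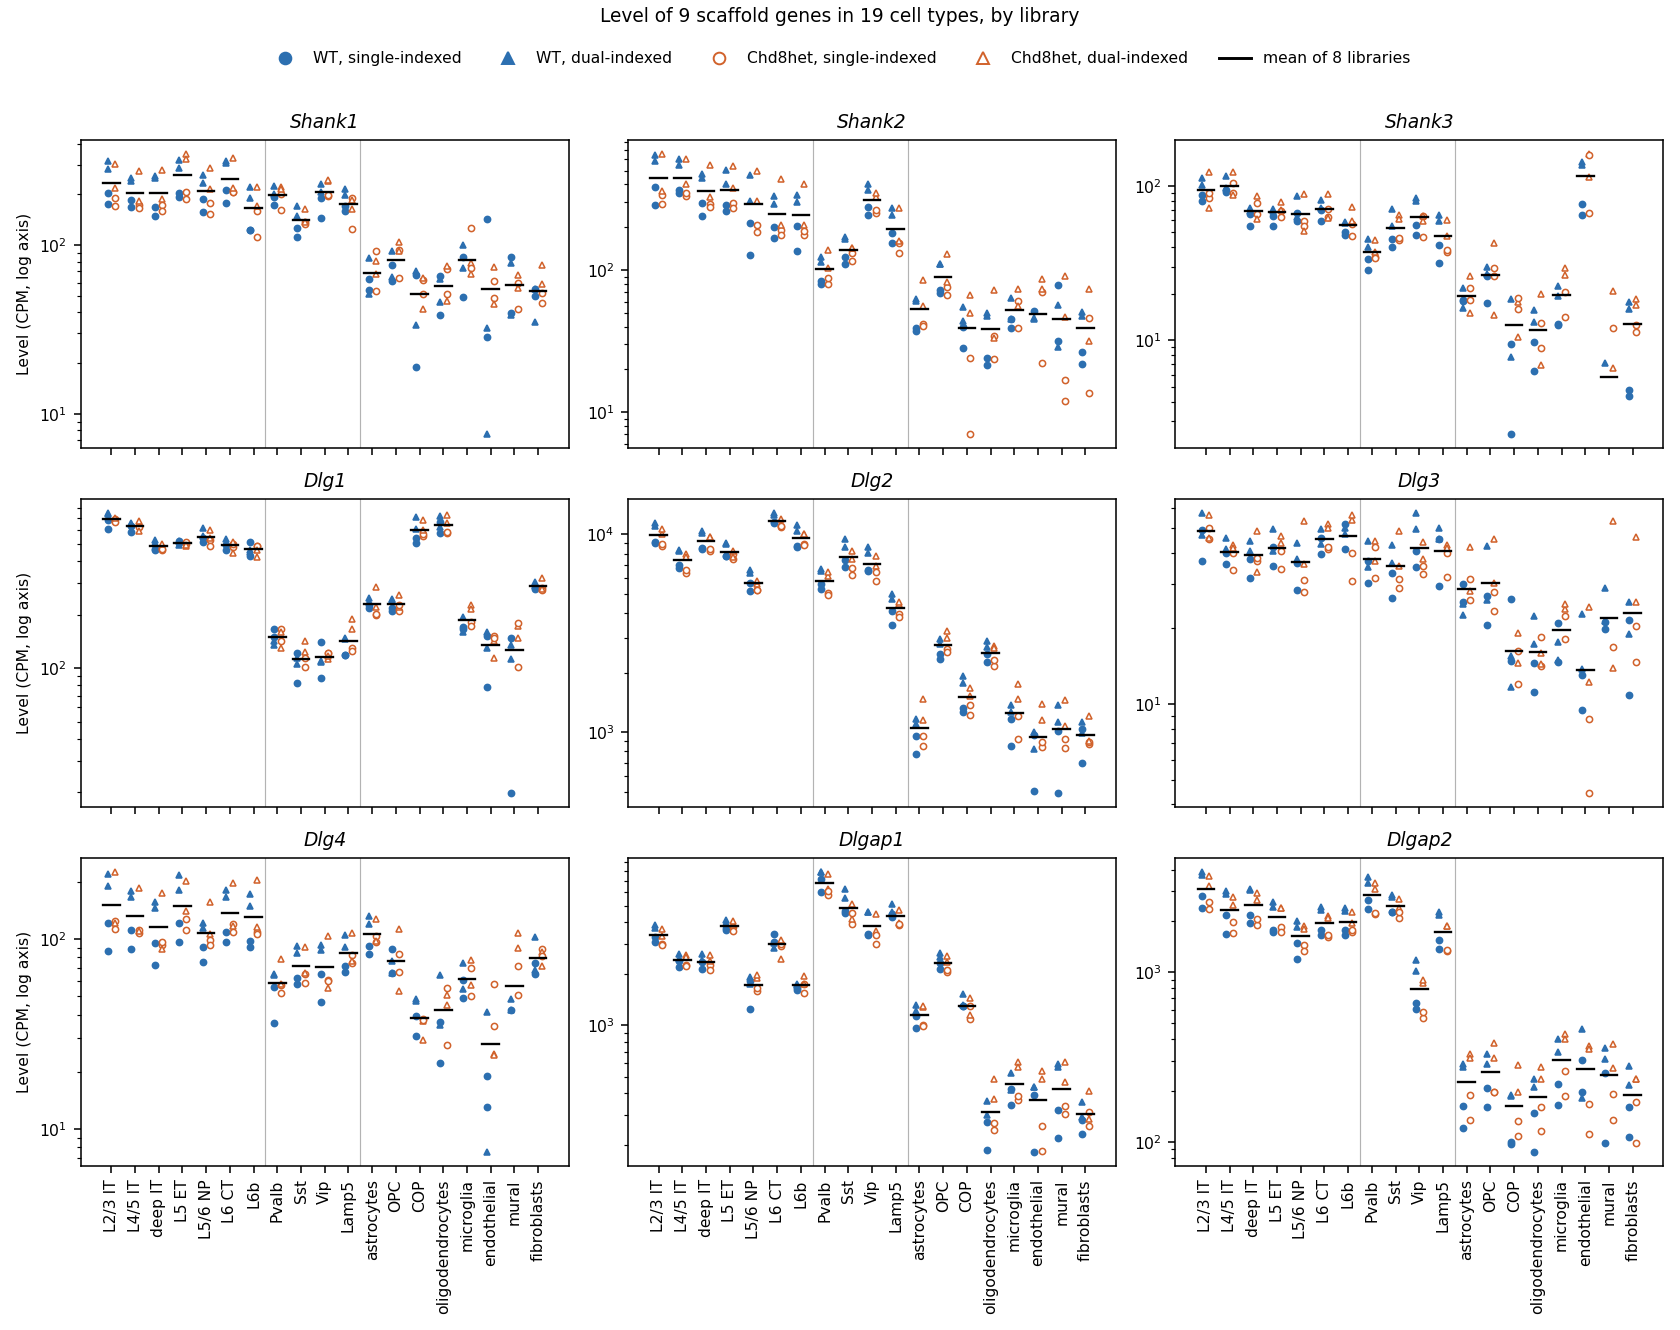
Level of each of the 9 scaffold genes (CPM, log axis) in 19 cell types (x axis: 7 excitatory types, 4 GABAergic types, then 8 other types). Each point is 1 library, filled blue for WT and open orange for Chd8+/-, circles for single-indexed and triangles for dual-indexed, and the bar is the mean of 8; libraries at 0 are not drawn. Dlg1 falls from excitatory to GABAergic types and is high again in COP and oligodendrocytes, and Shank3 peaks in endothelial cells.

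Of the DLG genes, Dlg1, which encodes SAP97, divided the 2 neuron classes most sharply. Its level was 688 ± 43.7 CPM in L2/3 IT neurons (604, 686 and 749) and 466 ± 30.9 in L6b neurons, the lowest excitatory type, against 113 ± 17.5 in Sst interneurons (82, 114 and 142) and 149 ± 13.8 in Pvalb interneurons, the highest GABAergic type. Oligodendrocytes held 643 ± 61.7 CPM (578, 641 and 731) and COP 599 ± 70.6 (509, 587 and 713), which placed both within the excitatory range. With library size alone as the scaling, COP (625 CPM) and oligodendrocytes (622) came above L2/3 IT neurons (553). The lowest library of any excitatory type was at 424 CPM and the highest of any GABAergic type at 190, so the classes did not overlap for Dlg1.

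Dlg2, which encodes PSD-93, was high in every neuron type but not to the same degree. Its level ran from 11680 ± 710 CPM in L6 CT neurons (10883, 11444 and 12831), which project to the thalamus, to 5709 ± 550 in L5/6 NP neurons (5163, 5618 and 6637). In GABAergic types Dlg2 was between 4259 ± 510 in Lamp5 and 7641 ± 1084 in Sst interneurons. Endothelial cells had the lowest mean, 947 ± 259 CPM, 12.3-fold under L6 CT neurons. With library size alone as the scaling they were not the lowest, at 1446 CPM against 1079 in astrocytes, and above astrocytes in 8 of 8 libraries.

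Dlg3, which encodes SAP102, and Dlg4, which encodes PSD-95, were low in CPM before any division by gene length. They varied 3.56-fold and 5.39-fold over the types with the TMM scaling. For Dlg3 the mean was 48.6 ± 6.48 CPM in L2/3 IT neurons and 13.6 ± 6.83 in endothelial cells, and 0 of 18 gaps between neighbouring types exceeded both SDs. With library size alone the highest mean was in L6b neurons for Dlg3 (40.4 against 39 CPM in L2/3 IT) and in L5 ET neurons for Dlg4 (121 against 120). Endothelial cells, the lowest type of both genes with TMM, were then above oligodendrocytes for Dlg3 (20.8 against 15.6 CPM). For Dlg4 they were then above COP (42.4 against 40.1). For Dlg4 the excitatory types were at 107 to 150 CPM and the GABAergic types at 58.4 to 84.5. Astrocytes, at 106 ± 17.8 CPM (83.2, 99.9 and 132), lay above all 4 GABAergic means for Dlg4.

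The DLGAP genes differed from each other in the types where they were high. Dlgap1 was highest in Pvalb interneurons, the fast-spiking type, at 6848 ± 903 CPM (5769, 6710 and 7933), while its excitatory types ran from 1718 ± 120 in L6b to 3833 ± 209 in L5 ET neurons. The lowest mean was in vascular and leptomeningeal fibroblasts at 302 ± 58.4 CPM, a 22.6-fold range, and 8 of 18 neighbouring gaps exceeded both SDs. With library size alone as the scaling, oligodendrocytes (301 CPM) came below the fibroblasts. Dlgap2 was highest in L2/3 IT neurons at 3075 ± 630 CPM (2357, 2993 and 3889) and close behind in Pvalb interneurons at 2840 ± 565 (2180, 2856 and 3606), and with library size alone as the scaling the order of the 2 was turned (2462 and 2579 CPM). In Vip interneurons Dlgap2 was at 790 ± 230 CPM (534, 761 and 1175), 3.59-fold under Pvalb interneurons, and the libraries of the 2 types did not overlap. Vip interneurons thus had the highest GABAergic mean of Shank2 and the lowest of Dlgap2.

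Summed over types, neurons carried more of every scaffold RNA than glia. Summed neurons were tested against summed astrocytes, oligodendrocytes, oligodendrocyte precursors (OPC) and microglia with edgeR's quasi-likelihood test, with the library as a block, 8 libraries on each side and Benjamini-Hochberg adjustment over all genes. All 9 members were higher in neurons, where 79.3% of 18906 genes tested passed in either direction, 39.6% being higher and 39.7% lower in neurons. Dlgap2 stood out in size at 2311 ± 425 CPM in neurons against 215 ± 71.8 in glia (11.1-fold, log2 change 3.47 ± 0.09 SE, adjusted p = 3.8e-14), and Shank2 followed at 337 ± 97.5 against 51.7 ± 15.6 (6.51-fold). The smallest change was that of Dlg1, 501 ± 17.4 against 313 ± 26.5 CPM (1.6-fold, log2 change 0.68 ± 0.05, adjusted p = 9.9e-09). The sums were higher in neurons in 8 of 8 libraries for each gene. Single types did not all follow the sums, which held 39946 excitatory and 6586 GABAergic nuclei. Dlg1 was at 113 to 149 CPM in the GABAergic types against 230 in astrocytes and in OPC and 643 in oligodendrocytes. Dlg4 in astrocytes (106) lay above the GABAergic types, and Dlgap1 in OPC (2327) above L6b neurons (1718). With library size alone as the scaling, the median of all genes moved by -0.37 on the log2 scale and 31.2% instead of 49.9% of the called genes were higher in neurons, with all 9 members still higher.

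Other lists of the postsynaptic density moved the same way less uniformly. Of 26 other scaffold and adaptor genes, 20 were higher and 3 lower in neurons, with a median log2 change of 1.36 against 1.68 for the members and 0.01 over all genes. Cnksr2, an adaptor of Ras signalling, was 7.18-fold higher in neurons (1105 ± 93 against 154 ± 16.7 CPM), whereas Homer3 was 7.77-fold lower (1.49 ± 0.286 against 11.6 ± 1.43). Among 24 glutamate receptor and adhesion partners 22 were higher and 1 lower, led by the NMDA receptor subunit gene Grin2a (9.96-fold). Of 19 enzymes and regulators, 13 were higher and 4 lower, and Kalrn, a guanine nucleotide exchange factor of spines, was 5.75-fold higher. In the list of 5 inhibitory postsynaptic genes, 3 were higher and 2 lower. Those lower in neurons were Insyn2a, 8.05-fold, and Gphn, the gephyrin gene (630 ± 43 against 856 ± 60 CPM, 1.36-fold). These lists were compared by counts and medians only.

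Within neurons, the scaffolds divided between the excitatory and the GABAergic class. Dlg1, Shank2, Dlg4, Shank3, Dlg2, Shank1 and Dlg3 were higher in excitatory neurons, Dlgap1 was higher in GABAergic neurons, and Dlgap2 did not pass the test. The 8 calls among 9 members compare with 66.6% of 17991 genes called in either direction, 31.9% of them higher in excitatory neurons and 34.7% lower. Dlg1 was at 505 ± 18 CPM in excitatory neurons (477 to 531) and 118 ± 8.81 in GABAergic neurons (108 to 129), a 4.28-fold difference (log2 change 2.10 ± 0.05, adjusted p = 4.8e-14). Shank2 was 2.44-fold, Dlg4 1.91-fold, Shank3 1.76-fold and Dlg2 1.4-fold higher in excitatory neurons, each in 8 of 8 libraries.

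Dlgap1 went the other way, with 2444 ± 148 CPM in excitatory neurons (2249 to 2666) and 4884 ± 525 in GABAergic neurons (4294 to 5684), 1.99-fold apart (log2 change -0.99 ± 0.04, adjusted p = 3.6e-12). The groups did not overlap. Dlgap2 was at 2119 ± 397 and 2034 ± 292 CPM (log2 change 0.05, 95% interval -0.03 to 0.13, adjusted p = 0.223). Small differences in this comparison rested on the scaling: with library size alone the median of all genes moved by -0.14 on the log2 scale, 34.1% instead of 47.9% of the called genes were higher in excitatory neurons, and Shank1 (log2 change 0.25, adjusted p = 0.00312) and Dlg3 (0.15, 0.00288) came to 0.10 (adjusted p = 0.151) and 0.01 (0.846), while Dlgap2 came to -0.09 (0.0336). With no count filter Dlgap2 passed in the other direction (0.10, adjusted p = 0.0256).

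Around the members, 15 of 26 other scaffold genes were higher in excitatory neurons and 10 lower, with a median log2 change of 0.57 against -0.03 over all genes and 0.49 for the members. Baiap2, which acts on the actin cytoskeleton of spines, was 8.25-fold higher in excitatory neurons (160 ± 33.2 against 19.3 ± 4.24 CPM), and Grip1, an AMPA receptor binding adaptor, was 9.68-fold lower (319 ± 70.4 against 3047 ± 410). Of the enzymes and regulators 15 of 19 were higher and 2 lower, among the first Camk2a, a kinase of the postsynaptic density (3.24-fold). Among the receptor and adhesion partners 13 of 24 were higher and 6 lower, with Nlgn1, an excitatory neuroligin, 2.44-fold higher and the AMPA receptor subunit gene Gria1 2.01-fold lower. In the inhibitory list 1 of 5 was higher and 3 were lower.

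**Figure D2:**
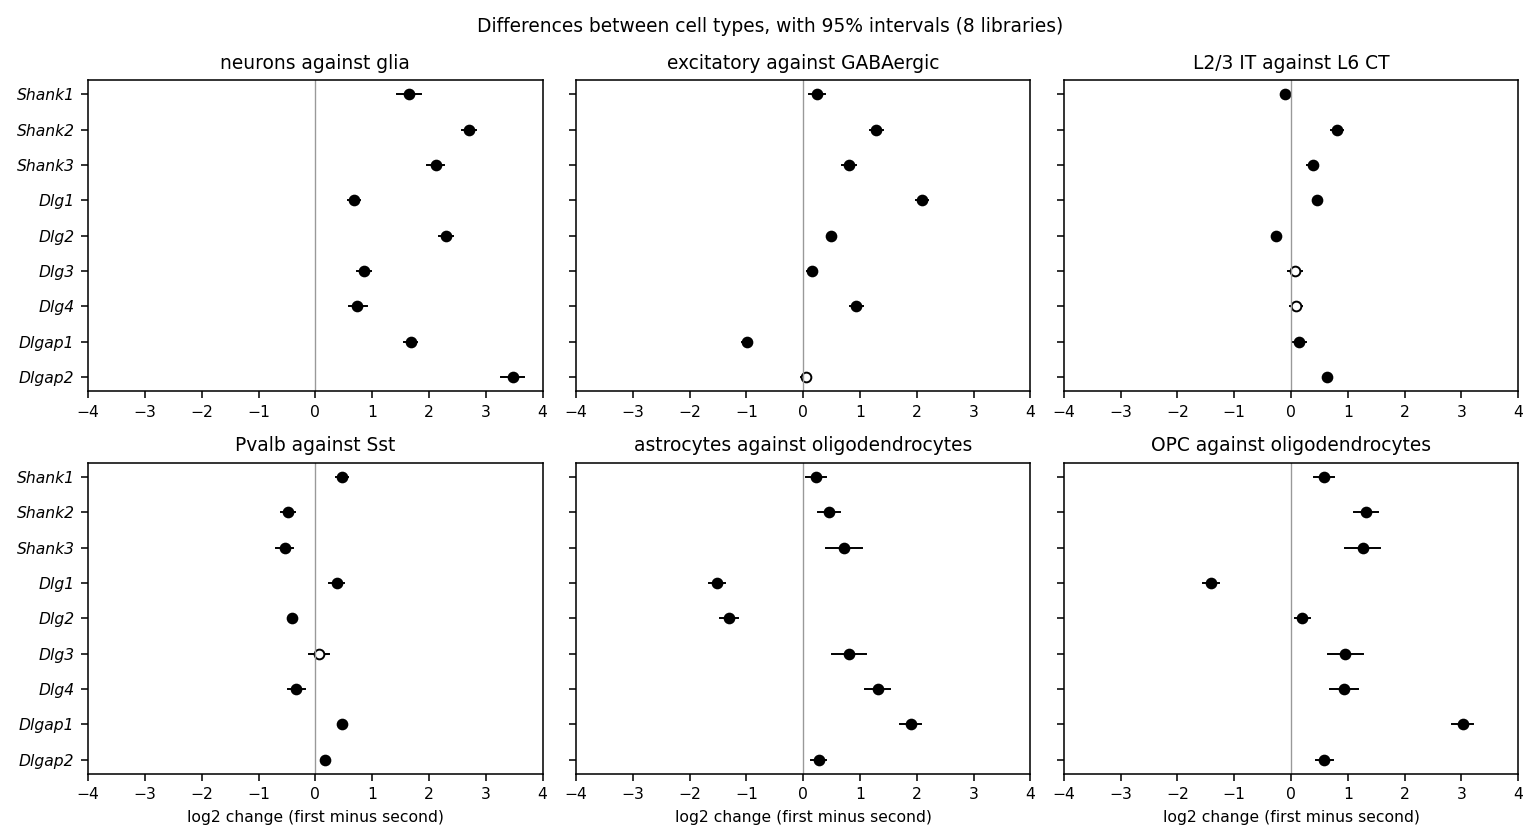
Log2 difference of the 9 scaffold genes between 2 cell types or classes (x axis, first minus second) in 6 comparisons over 8 libraries, with the library as a block. Points are fitted values, bars their 95% intervals, filled where the adjusted p was under 0.05. Dlg1 is higher in excitatory than GABAergic neurons by 2.10 and Dlgap1 lower by 0.99, and in OPC against oligodendrocytes the same 2 genes lie at -1.40 and 3.02.

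Between L2/3 IT and L6 CT neurons, at the top and the bottom of the cortex, the members differed by at most 1.76-fold. Shank2 was higher in L2/3 IT neurons at 361 ± 123 against 206 ± 77.1 CPM (log2 change 0.81 ± 0.05, adjusted p = 3.8e-10), followed by Dlgap2 (1.55-fold), Dlg1 (1.38-fold), Shank3 (1.3-fold) and Dlgap1 (1.11-fold). Dlg2 was 1.2-fold lower, at 8092 ± 724 against 9676 ± 511 CPM, in all 8 libraries. In all, 5 members were higher and 2 lower, with 58.1% of 15273 genes called, 28.2% higher and 29.9% lower. The calls of Shank1 (log2 change -0.10, adjusted p = 0.0349) and Dlgap1 (0.15, adjusted p = 0.0274) were lost when single libraries were left out: Dlgap1 had adjusted p = 0.0815 without WT male 2, 0.0523 without WT female 2 and 0.0714 without Chd8+/- male 2. Without WT female 1, Dlg4 passed (0.12, adjusted p = 0.0301).

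Pvalb and Sst interneurons, which target the soma and the dendrites of excitatory neurons respectively, differed in 8 of 9 members, 4 in each direction, with 44.5% of 11923 genes called (22.9% higher and 21.6% lower in Pvalb). Dlgap1 was at 6292 ± 716 CPM in Pvalb and 4555 ± 649 in Sst interneurons (log2 change 0.47 ± 0.04, adjusted p = 7.4e-12), and Shank1 (1.38-fold), Dlg1 (1.3-fold) and Dlgap2 (1.13-fold) were higher as well. Shank3 was 1.46-fold, Shank2 1.4-fold, Dlg2 1.34-fold and Dlg4 1.26-fold lower in Pvalb interneurons, each in 8 of 8 libraries. For Dlg3 the difference was 0.06 (95% interval -0.11 to 0.24, adjusted p = 0.588). Of the 24 receptor and adhesion partners, 8 were higher and 11 lower in Pvalb interneurons.

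RNA of 9 genes listed as neuronal was counted in the sums of every other cell type, and the scaffold levels there were read beside it. Whether it came from neurons or from these cells themselves was not tested. For this list, the level in non-neuronal types as a share of the excitatory mean had medians of 10.5% in oligodendrocytes to 24% in OPC. The shares were uneven within the list: Nrgn was the highest gene in each type, at 65% to 131% of an excitatory mean of 175 CPM. Slc17a7, the vesicular glutamate transporter gene, was at 29.1% to 57%. Only 4 scaffold values exceeded the highest gene of this list in their type. These were Dlg1 in oligodendrocytes (118% of its excitatory mean, list maximum 83.4%) and in COP (110%, 65%), Dlgap1 in OPC (88.6%, 85.7%) and Shank3 in endothelial cells (154%, 94%). In astrocytes, microglia, mural cells and fibroblasts no member did, although Dlg4 in astrocytes came to 80.7% and Dlg3 to 67.6%, above every listed gene except Nrgn at 98.2%. The part of neuronal RNA in the lower values, such as Shank2 at 11.2% in oligodendrocytes and Dlgap2 at 7.28% to 13.6% over the 8 types, was not tested.

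Along the oligodendrocyte lineage Dlg1 rose, whereas every other member had a lower mean in COP than in OPC. Dlgap1 fell from 2327 ± 220 CPM in OPC (2048, 2327 and 2637) through 1301 ± 144 in COP (1085, 1294 and 1533) to 310 ± 92 in oligodendrocytes (185, 284 and 482), in 8 of 8 libraries at each step. Dlg1 rose from 230 ± 17.8 CPM in OPC (211, 225 and 259) to 599 ± 70.6 in COP in 8 of 8 libraries. Its level in oligodendrocytes, 643 ± 61.7 CPM, was above that in COP in 8 of 8 libraries, but by less than the SD, and with library size alone as the scaling COP was the higher one in 6 of 8 (625 against 622). Dlg2 was lowest in the middle, at 2752 ± 306 in OPC, 1512 ± 256 in COP and 2524 ± 256 in oligodendrocytes, with 8 of 8 libraries below both neighbours. OPC receive synapses from neurons, and COP are the stage between OPC and myelin-forming oligodendrocytes.

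**Figure D3:**
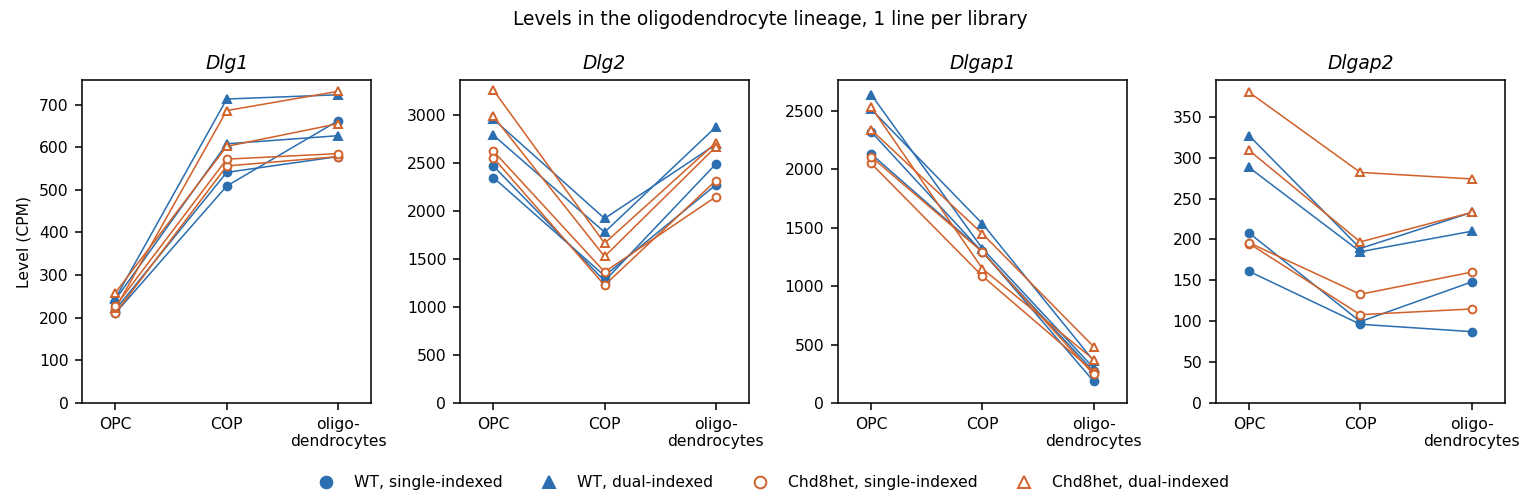
Level (CPM, linear axis from 0) of Dlg1, Dlg2, Dlgap1 and Dlgap2 in OPC, COP and oligodendrocytes, with 1 line per library (blue WT, orange Chd8+/-, triangles dual-indexed). Dlgap1 falls from a mean of 2327 to 310 and Dlg1 rises from 230 to 643 in every library, and the dual-indexed lines of Dlgap2 lie above the single-indexed ones.

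In the test of OPC against oligodendrocytes, 8 members were higher and Dlg1 lower, with 62% of 10370 genes called, 33% higher and 29% lower in OPC. Dlgap1 was 8.12-fold higher in OPC (log2 change 3.02 ± 0.09, adjusted p = 1.4e-23) and Dlg1 2.64-fold lower (-1.40 ± 0.07, adjusted p = 2.3e-18), neither with any overlap between the types. Shank2 was 2.49-fold and Shank3 2.4-fold higher. The small difference of Dlg2 (log2 change 0.20 ± 0.06, adjusted p = 0.00641) was lost without WT female 2 (adjusted p = 0.0685) and without Chd8+/- female 2 (0.0875), and with no count filter (0.11, adjusted p = 0.123). Among the receptor and adhesion partners 21 of 24 were higher in OPC and 0 lower, with Lrrtm4, a synaptic adhesion gene, 9.04-fold higher (3837 ± 133 against 438 ± 133 CPM). Of the other scaffold genes 16 of 25 tested were higher and 4 lower. Cask, a membrane-associated guanylate kinase, was 4.86-fold higher in OPC and Magi2 2.15-fold lower. The neuronal list moved with this comparison too, with 7 of 9 genes higher in OPC, 0 lower and a median log2 difference of 0.38 against 0.94 for the members, and its part in the smaller differences was not tested.

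Astrocytes against oligodendrocytes gave calls for all 9 members, 7 higher and 2 lower, with 64.5% of 11542 genes called (32.1% higher and 32.4% lower in astrocytes). Dlgap1 was at 1148 ± 145 CPM in astrocytes against 316 ± 93.1 (3.72-fold, log2 change 1.89 ± 0.09, adjusted p = 4.8e-15), and Dlg4 at 106 ± 17.8 against 43.1 ± 14.8 (2.47-fold). Dlg1 was 2.85-fold lower and Dlg2 2.47-fold lower in astrocytes, in all 8 libraries and without overlap. Shank1 (log2 change 0.22, adjusted p = 0.0211) lost its call with the DESeq2 Wald test (adjusted p = 0.0549), and without the library block Shank1, Shank2 and Dlgap2 lost theirs (adjusted p = 0.217, 0.095 and 0.305, edgeR). With library size alone the median of all genes moved by 0.11 on the log2 scale, and the directions of the 9 members were the same. Of these 2 types, oligodendrocytes thus had the higher Dlg1 and Dlg2 levels and astrocytes more Dlg4 and Dlgap1. Beside these values, the neuronal list had a median log2 difference of 0.24 in this comparison, with 8 of 9 genes higher in astrocytes.

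Per kilobase of gene the order of the members was different from that of the raw levels, which are not comparable between genes. Over the excitatory types Dlg2 (4.46 CPM per kb of gene span), Shank1 (4.32) and Dlg4 (4.31) came first, and Shank2 (0.811) and Dlg3 (0.84) last. Over the GABAergic types Dlgap1 (5.83) led before Shank1 (3.6) and Dlg2 (3.15), with Dlg1 (0.614) and Shank2 (0.441) last. On this scale the 30.6 kb gene Dlg4 lay beside Dlg2, whose raw level was far higher. Divided by the length of merged exons instead, Dlg2 was first in both classes (541 and 381 CPM per kb), where by span it was behind Dlgap1 and Shank1 in the GABAergic types, and 8 of 9 ranks moved in each class. For these 3' counts the use of intron reads is not given, so neither division makes the levels comparable between genes.

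Over the 19 type means (log2 CPM), most members followed each other, and Dlg1 followed none closely. As a description with no test, since all types share the same 8 libraries, Pearson's r was 0.949 between Shank1 and Shank2 and 0.934 between Shank1 and Dlgap2. For Dlg1, r ran from 0.0131 with Dlgap1 to 0.487 with Dlg4. Among 10336 genes, the pattern most like that of Dlg1 was Tyro3, a receptor tyrosine kinase gene (r = 0.893), then Osbpl1a (0.87) and Ints7 (0.867). Shank1 was nearest to Unc13a (0.983), which encodes a presynaptic vesicle priming protein, Shank2 to Add2 (0.975), Shank3 to Ppm1f (0.952) and Jag2 (0.926), Dlg2 to Plekha5 (0.971), Dlg3 to Hectd2 (0.984), Dlg4 to Iqce (0.96), Dlgap1 to Skp2 (0.949) and Dlgap2 to Olfr55 (0.981). The third nearest of both Shank2 (Gm14372, 0.97) and Dlgap1 (5031415H12Rik, 0.94) was an antisense gene within it. Ranked by Spearman's rho instead, Ppm1f and Hectd2 stayed at rank 1. Add2 came to rank 2, Tyro3 to 8, Iqce to 12, Olfr55 to 17 and Unc13a to 21. Skp2 came to rank 95 and Plekha5 to 157, so these nearest genes hold for Pearson's r only.

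Turning to genotype, no difference of a scaffold gene between WT and Chd8+/- cortex passed the test in any cell type, although part of the intervals were wide. Genotype was tested with sex in the model in 17 cell types with at least 30 nuclei in every library, in the excitatory and GABAergic classes and in all kept nuclei, 20 sets in all. Of 176 tests of members that passed the count filter (Shank3 and Dlg3 did not in COP and fibroblasts), 0 passed, and 0 had an unadjusted p under 0.05. The background was the same: 0% of 6169 to 21256 genes per set passed with edgeR, 149 to 397 per set had an unadjusted p under 0.05, and DESeq2 called 16 genes over the 20 sets, 0 of them members. A pair here means the WT and the Chd8+/- library of the same sex and index type, which the labels do not tie to a litter. With the 4 pairs as a block, 59 genes were called over the 20 sets (20 higher and 39 lower in Chd8+/-), 0.0242% of all tests and 0 of them members. The unadjusted p was then under 0.05 in 18 of 176 member tests (10.2%) and in 6.43% of all tests. Of these 18, 9 were of Dlgap2, 5 of Dlgap1 and 4 of Dlg2, in sets that share the same libraries. With index type added instead, the unadjusted p was under 0.05 in 18 of 176 member tests (10.2%) and in 5.87% of all tests. Without either term the share of all tests was 2.21%.

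In excitatory neurons the genotypes overlapped for all 9 members, and the share of all genes that overlapped is not given here. Dlg2 was at 7059, 8124, 7137 and 8161 CPM in the WT libraries (male 1, male 2, female 1, female 2, the order used from here on) and 6857, 7555, 6898 and 7515 in Chd8+/-. This was a log2 change of -0.08 (95% interval -0.26 to 0.10, adjusted p = 1, edgeR). The Chd8+/- library was the lower 1 in each of the 4 pairs, by 0.04 to 0.12 on the log2 scale. Dlgap2 was at 1632, 2417, 1865 and 2461 CPM in WT and 1602, 2090, 1750 and 2267 in Chd8+/-, a log2 change of -0.12 (-0.49 to 0.25), also lower in 4 of 4 pairs. In both genes the dual-indexed libraries of a genotype lay above the single-indexed ones.

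Shank3, the scaffold most often named with autism, was at 62.5, 76.2, 66.4 and 68.4 CPM in WT and 64, 82.4, 72.1 and 56.1 in Chd8+/- excitatory neurons. Its log2 change was 0.00 (95% interval -0.28 to 0.28). Shank2 was at 278, 427, 228 and 381 CPM in WT and 249, 453, 239 and 268 in Chd8+/- (log2 change -0.13, interval -0.68 to 0.41), and Dlg4 at 94.6, 150, 72.3 and 134 in WT and 93.9, 159, 92.6 and 89.5 in Chd8+/- (-0.07, -0.63 to 0.49). The widest differences within pairs, -0.51 for Shank2 and -0.59 for Dlg4, came from the dual-indexed female pair. Dlg1 had the tightest values, at 498, 490, 458 and 498 CPM against 487, 460, 490 and 460 (-0.03, -0.18 to 0.11).

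In GABAergic neurons, Dlgap1 was at 4848, 5751, 5287 and 6007 CPM in WT and 4525, 4517, 4758 and 5490 in Chd8+/-. The log2 change was -0.18 (95% interval -0.40 to 0.03, unadjusted p = 0.0843 in the edgeR fit), lower in 4 of 4 pairs, by -0.13 on average in the single-indexed and -0.24 in the dual-indexed pairs. With the pairs as a block the change was -0.18 (-0.28 to -0.08, unadjusted p = 0.00117, edgeR adjusted p = 0.263), so it did not pass. The smallest unadjusted p among the members without the block was that of Dlgap1 in Sst interneurons, 0.0707 in edgeR (log2 change -0.23, interval -0.48 to 0.02). Dlg2 (-0.11) and Dlgap2 (-0.15) were lower in 4 of 4 pairs as well, and neither passed. With the pairs as a block their unadjusted p was 0.0121 and 0.00634 in edgeR, and again neither passed after adjustment.

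**Figure D4:**
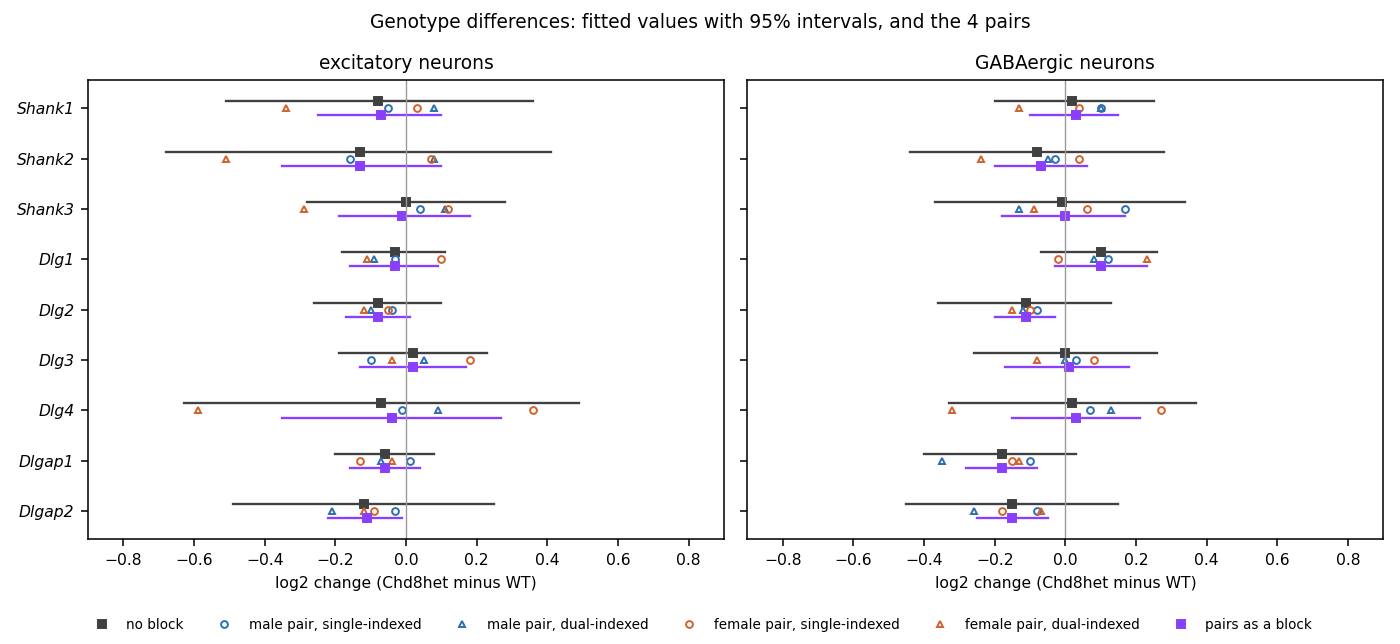
Genotype difference of the 9 scaffold genes (x axis: log2 change, Chd8+/- minus WT) in all excitatory and all GABAergic neurons. Squares are fitted values with 95% intervals without (grey) and with (purple) the pairs as a block, and open points are the 4 pairs; no gene passed after adjustment, and Dlgap1 in GABAergic neurons lies at -0.18 in both fits.

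Across the 11 neuron types the point estimates of Dlg2 and Dlgap2 were lower in Chd8+/- in all 11, those of Dlgap1 in 9, Shank2 in 8, Shank1 and Dlg4 in 7, Dlg1 and Dlg3 in 6 and Shank3 in 4. Over all 17 types tested, Dlg2 was lower in 13 and higher in 4, and Dlgap2 lower in 12 and higher in 5. Outside neurons the median log2 change of the members was 0.16 in astrocytes, 0.15 in oligodendrocytes and 0.13 in OPC. It was 0.22 in microglia, 0.09 in fibroblasts and -0.11 in COP. The types come from the same 8 libraries and are not replicates, and the same count over all genes was not made. Over all 176 tests, the 95% interval lay within a 1.5-fold change in either direction in 132 and within 2-fold in 175, and with the block in 163 and 176. Changes larger than 2-fold were thus outside nearly all intervals, whereas smaller ones were not detectable in part of the types. The other postsynaptic lists gave 0 calls in the reported model. With the block, and likewise with index type added, 1 of 474 tests of the receptor and adhesion partners passed, and 0 of the other lists.

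Sex gave no scaffold call either. Between 5 and 8 genes per set passed for sex (0.0305% to 0.109% of those tested, and 0.0512% over all sets), 0 of them members. The X-linked Dlg3 had its smallest unadjusted p at 0.0189 (edgeR adjusted p = 0.953), and its point estimate was lower in females in 14 of 18 sets. Dlg4 and Shank2 were lower in females in 20 of 20 sets as point estimates, with smallest unadjusted p-values of 0.0405 and 0.0701 in edgeR. The sets share the same libraries and are not replicates, and the same count over all genes is not given here. Without a count filter and with index type added, more genes passed for sex (669 and 303 over the 20 sets, against 125), 0 of them members. With index type added, 43 of 176 member tests (24.4%) had an unadjusted p under 0.05, against 9.19% of all tests. In the reported model these were 6 member tests (3.41%) and 3.8% of all tests. No gene passed for an interaction of sex and genotype in any set with the reported model (72 to 244 genes per set had an unadjusted p under 0.05 in edgeR), and 2 member tests had an unadjusted p under 0.05, of Shank2 (0.0293) and Shank1 (0.0469).

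The scaffolds differed with the index type of the library more than with genotype or sex, a comparison added after the data were seen. With index type tested beside sex and genotype, 81 of 176 member tests passed, and all 81 were higher in the dual-indexed libraries. The background was 1.94% to 34.1% of genes per set in either direction (19.3% of all tests, with 9.88% higher in dual-indexed libraries), and in excitatory neurons 16.2% of 19686 genes were higher and 17.9% lower in dual-indexed libraries. Dlgap2 passed in 19 of 20 sets and Shank2 in 18 of 20, Dlg2 and Dlg4 in 12, Shank1 in 10, Dlgap1 in 7, Shank3 in 2 of 18, Dlg3 in 1 of 18 and Dlg1 in 0 of 20. In excitatory neurons Dlgap2 was at 1602 to 1865 CPM in the 4 single-indexed and 2090 to 2461 in the 4 dual-indexed libraries (log2 change 0.43 ± 0.05 SE, edgeR adjusted p = 0.000591). Shank2 was at 228 to 278 and 268 to 453 CPM (0.61 ± 0.10, adjusted p = 0.00355), and Dlg1 at 458 to 498 and 460 to 498 (-0.02 ± 0.05, adjusted p = 0.793).

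Both genotypes and sexes held the same number of libraries of each index type, so this difference is balanced over the groups compared above. The reported genotype model has no term for index type, so it remains in the spread that genotype was tested against. The dual-indexed libraries also had more UMIs per nucleus, and what part the depth had in these differences was not tested. Small clusters of 4 neuron types (L2/3 IT, L5 ET, L6 CT and L5/6 NP) held 73.1% to 80.5% dual-indexed nuclei, and with only the largest cluster of each type, 12 of the 171 levels moved by more than their SD. The left-out striatal cluster held 0, 34, 0 and 0 nuclei in the single-indexed and 46, 130, 51 and 68 in the dual-indexed libraries. Among unnamed clusters, 597 of 641 nuclei in 1 came from Chd8+/- male 2, and 703 of 837 in another from the single-indexed WT female 1. The part of tissue content in the index difference was not tested.

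**Figure D5:**
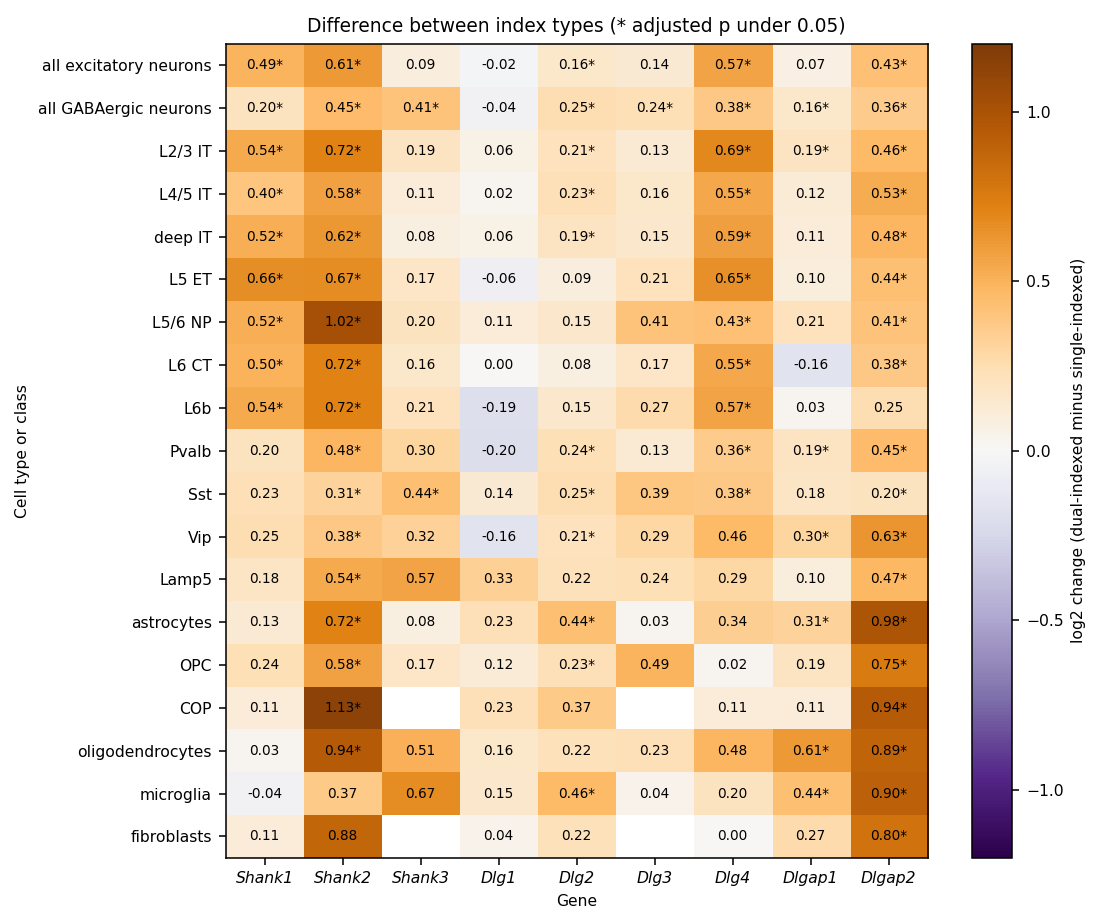
Log2 difference of each scaffold gene (columns) between the 4 dual-indexed and the 4 single-indexed libraries in 2 neuron classes and 17 cell types (rows), with an asterisk where the adjusted p was under 0.05 and blank cells where the gene did not pass the count filter. Shank2 and Dlgap2 are positive in every row, and Dlg1 has no asterisk.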

How the data were processed

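The authors deposited whole-number UMI counts per gene and barcode for 8 libraries, per the file headers, with no cell annotation used here. The submitters' processing notes name mm10, Cell Ranger, STAR 2.7.9a and STARsolo without saying what each did, and the strand setting and use of intron reads are not given in the sources used here. Nuclei with at least 500 genes and at most 5% mitochondrial UMIs were kept, and Scrublet doublets (4.03% to 6.69% per library, expected 0.8% per 1000 nuclei) were removed. Nuclei were clustered with scanpy 1.11.5 (3000 variable genes, 40 components, 20 neighbours, Leiden resolution 1.5). A cluster was named where at least 3 listed markers were raised at least 2-fold and its best list led the next by 0.3 on the log2 scale, with a listed marker among its 50 leading genes, no other list ahead among the top 10, and at most 2 times the UMIs per nucleus of the largest cluster of that name. By these rules 19 of 51 clusters stayed unnamed.

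Counts were summed per library and type and tested with edgeR 4.0.16 in R 4.3.3 (quasi-likelihood, TMM, minimum count 10, Benjamini-Hochberg over all genes of a set, called at 0.05), with sex and genotype in the model, and with the library as a block between types. DESeq2 1.42.0 was an alternative. Intervals are 95%, and log2 changes by genotype are Chd8+/- minus WT. The scripts were tested on simulated counts with known changes. The count test suits these data because the deposited values are counts, and nothing beyond 1 library per animal was averaged.

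The replicate numbers were taken to pair the samples of 1 sex, because the labels tie each number to 1 index type. Deviations from the genotype means correlated in each pair and set (r = 0.356 to 0.769). Both libraries of such a pair share sex and index type, so this r cannot show whether they share a litter. Litter pairs are stated but not tied to single libraries in the labels.

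All 9 members were named in every comparison. Of the other lists the called genes could be named, and where over 4 of a list were called, the 2 largest rises and 2 largest falls; for likeness the 3 genes with the highest Pearson r over 19 types. The members and lists were chosen with earlier results of these data known. Nlgn1, Gria1, Camk2a, Kalrn, Grin2a, Cnksr2 and the like follow that rule, and 1 gene that the rule names is not reported here. Gene coordinates are from GENCODE M21 (GRCm38), which held 32158 of the 32285 gene identifiers.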

Additional observations from a re-analysis of the deposited data

Results flagged for a closer look

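A library stood apart from the rest of its group in 8 of 207 values of the members examined, which is no more than the about 5% that chance gives. The 8 values are listed as a description only. In Chd8+/- excitatory neurons, the library of male 2, which is dual-indexed, was at 453 CPM for Shank2 against 239 to 268 in the other 3, at 159 for Dlg4 against 89.5 to 93.9, and at 40.3 for Dlg3 against 34 to 34.3. The same library was at 82.8 CPM for Dlg4 in GABAergic neurons against 56 to 60.1 in the other 3 of its genotype, and at 72.5 for Shank3 in L6b neurons against 47.3 to 58.8 in the other 7. The dual-indexed Chd8+/- female 2 was at 41.9 CPM for Dlg3 in astrocytes against 22.5 to 31.3 and at 46.3 in fibroblasts against 10.9 to 25.4. In WT GABAergic neurons, female 1 was at 136 CPM for Dlg1 against 113 to 116. Each of these values was the highest of its group, and every group held both index types. For Shank2 and Dlg4 in excitatory neurons, the dual-indexed WT libraries lay nearer to Chd8+/- male 2 than to the dual-indexed Chd8+/- female 2.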

How the results depend on the processing

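The count of genes called for genotype over the 20 sets moved from 0 to 59 with the replicate block, 45 with index type added, 107 with no count filter and 16 with the DESeq2 Wald test, and from 0 to 1 (0 to 1 gene) when each library was left out. The count of members called for genotype was 0 under each of these alternatives, and the block changed no call of a member. The genes called for sex numbered 125 over the sets, 303 with index type added, 669 with no count filter and 188 with the DESeq2 Wald test, and those for the interaction of sex and genotype 0, 1 with index type added, 49 with no count filter and 3 without WT male 1, with 0 members called for either. With each library left out, members called numbered 8 to 8 between excitatory and GABAergic neurons, 9 to 9 between neurons and glia, 9 to 9 between astrocytes and oligodendrocytes, 8 to 9 between OPC and oligodendrocytes, 8 to 8 between Pvalb and Sst and 5 to 8 between L2/3 IT and L6 CT neurons. No member called in the reported fits was called in the other direction under an alternative. With library size alone, Dlgap2 between excitatory and GABAergic neurons came to -0.09 and passed the test, against 0.05 and no call in the reported fit, and with no count filter it passed at 0.10. Without the library block, Shank1 (adjusted p = 0.0549) and Dlg3 (0.134) lost their calls between excitatory and GABAergic neurons, Dlgap2 (0.143) between Pvalb and Sst interneurons, Dlg2 (0.0553) between OPC and oligodendrocytes, and Shank1 (0.643) and Dlgap1 (0.1) between L2/3 IT and L6 CT neurons. In that last comparison Shank1 also lost its call with DESeq2 size factors (adjusted p = 0.0535), no count filter (0.23) and the DESeq2 Wald test (0.0709), and Dlgap1 with library size alone (0.0997). Of 513 recomputed levels 68 moved by more than their SD, 54 of them with library size alone, and the cause was not tested. Sex cannot be tested within pairs of 1 sex. Depth limits endothelial and mural cells, with 442 and 378 nuclei, to levels without a test.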

Other observations

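Other genes of the postsynaptic lists were also unequal between glial types. Between astrocytes and oligodendrocytes, Magi3, a membrane-associated guanylate kinase, was 12-fold higher in astrocytes (369 ± 56.5 against 30.7 ± 8.97 CPM, edgeR adjusted p = 1.1e-18), Camk2g, the gamma subunit gene of the calcium/calmodulin kinase, 10.3-fold and Ctnnd2, the delta-catenin gene, 9.05-fold higher. Lgi1, a secreted partner of the Adam22 receptor, was 9.01-fold higher in astrocytes, while Adam22 was 2.29-fold lower (111 ± 11.1 against 253 ± 25.7 CPM). Lrrtm3, a synaptic adhesion gene, was 6.75-fold lower in astrocytes and Prickle1 2.97-fold lower.

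Between L2/3 IT and L6 CT neurons, Lrrtm4 differed most among the receptor and adhesion partners, with 8548 ± 611 CPM in L2/3 IT and 1224 ± 86.1 in L6 CT neurons (6.99-fold, edgeR adjusted p = 1.0e-15). Camk2d was 4.52-fold higher in L2/3 IT neurons and Camk2a 2.02-fold higher, whereas Camk2g was 1.9-fold lower.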
